A study of Drosophila melanogaster with 13 samples.

Results

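The regions described here are the ChIP-seq peaks of MSL3 and MSL1 in adult males whose only functional MLE was wild type, and the question was where MSL3 was found with MSL1 and where it was found without it. The MSL3 list of these males held 2915 peaks and the MSL1 list 293, together 3208 of the 6400 peaks in the 6 lists of the series. Of the MSL3 peaks, 1030 lay on the X chromosome, 1879 on the autosomes (2L, 2R, 3L, 3R and 4) and 6 on other sequences, which were left out. An MSL3 peak was taken as lying with MSL1 when it overlapped an MSL1 peak by at least 1 bp. All others are called MSL3-only, which means that no MSL1 peak was listed there and not that MSL1 was absent.

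The males were 2 to 3 days old and carried the mle9 mutation on both copies of chromosome 2, so that endogenous MLE, the helicase of the complex, was not functional. MLE came from a FLAG-tagged wild-type transgene (the MLEwt line) under the ubiquitin-p63E promoter, which drives expression in all tissues. It was inserted at 86Fb on chromosome 3, opposite a TM6 balancer with many inversions, in strain M{3xP3-RFP.attP}ZH-86Fb. Chromatin was from whole animals, so a peak is a sum over tissues, and each protein was precipitated with a rabbit antibody in 2 libraries. The series has 13 libraries, among them the same antibodies in mle9 males of the MLEΔCBD line, whose transgene was homozygous and whose MLE lacks the region that binds CLAMP, and 1 preimmune library, which was not analysed here. All positions follow the reference arrangement of dm6, which is release 6 of the genome.

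In Drosophila, males raise the transcription of their single X chromosome with the MSL complex. MSL1 is the scaffold that joins MSL2 to MSL3 and to the acetyltransferase MOF, and MSL3 carries a chromodomain that recognises nucleosomes with methylated lysine 36 of histone H3, a mark of the bodies of transcribed genes. The complex is first recruited to high-affinity sites, which hold GA-rich sequence bound by CLAMP, and then reaches transcribed genes around them. The fold enrichment of a peak over background, the authors' measure of strength, is used here to rank and describe peaks within a list, with rank 1 the strongest, and is not compared between lists.

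Sequences at some of the summits illustrate the motifs described further on, and each line below holds 101 bases of the plus strand of dm6 centred on a summit. Capitals mark a GA repeat (GAGAGAGA, 4 GA units) or the letters CAAGCAGT, each on either strand. The lines at roX2, CG1677, SNF4Agamma and CG31279 were picked because they hold a marked sequence, so they do not show how common it is, and the others are among the strongest peaks of their class. The first lines are at the summits of MSL1 peaks inside X-linked MSL3 peaks: at roX2, one of the RNAs of the complex, in an intron of CG1677, whose summit also lies in Atg5 and a non-coding RNA gene, and in an intron of CG4645, which has no capitals.
roX2, chrX:11580191-11580291: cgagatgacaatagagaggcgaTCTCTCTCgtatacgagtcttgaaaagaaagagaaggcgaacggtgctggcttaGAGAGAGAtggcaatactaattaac
CG1677, chrX:7320963-7321063: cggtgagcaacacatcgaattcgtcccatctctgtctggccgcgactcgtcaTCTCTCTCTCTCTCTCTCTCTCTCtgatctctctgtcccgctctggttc
CG4645, chrX:12910955-12911055: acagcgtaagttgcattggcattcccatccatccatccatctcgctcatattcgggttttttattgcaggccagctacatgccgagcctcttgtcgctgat
For comparison, these are at the MSL3 summits of strong MSL3-only peaks of the X chromosome, in a coding exon of g and an intron of sw, and neither holds a marked sequence.
g, chrX:13729465-13729565: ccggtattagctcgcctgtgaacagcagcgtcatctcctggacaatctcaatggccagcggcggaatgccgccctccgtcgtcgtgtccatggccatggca
sw, chrX:20235438-20235538: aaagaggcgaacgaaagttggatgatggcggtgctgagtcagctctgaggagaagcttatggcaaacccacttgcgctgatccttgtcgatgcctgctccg
The autosomal sites with both proteins are represented by the MSL1 summits in introns of SNF4Agamma and CG32196 and at a transfer RNA gene within CG31279, which hold CAAGCAGT in both orientations or in repeated copies, and by that in an intron of bun, among the strongest of them, which has no capitals within these bases.
SNF4Agamma, chr3R:21184879-21184979: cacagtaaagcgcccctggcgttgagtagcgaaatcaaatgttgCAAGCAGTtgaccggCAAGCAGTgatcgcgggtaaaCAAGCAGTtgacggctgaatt
CG32196, chr3L:18460468-18460568: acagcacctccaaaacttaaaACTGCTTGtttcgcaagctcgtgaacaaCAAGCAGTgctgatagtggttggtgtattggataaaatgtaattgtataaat
CG31279, chr3R:16431796-16431896: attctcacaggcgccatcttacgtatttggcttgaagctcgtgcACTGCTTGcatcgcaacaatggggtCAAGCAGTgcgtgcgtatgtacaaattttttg
bun, chr2L:12520363-12520463: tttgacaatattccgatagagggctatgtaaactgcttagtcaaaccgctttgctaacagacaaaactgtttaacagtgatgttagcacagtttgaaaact
The last lines are at strong autosomal MSL3-only summits, in an intergenic stretch whose nearest annotated start is that of CG7031 and at the promoter of Top2, and have no capitals.
CG7031, chr3R:22794106-22794206: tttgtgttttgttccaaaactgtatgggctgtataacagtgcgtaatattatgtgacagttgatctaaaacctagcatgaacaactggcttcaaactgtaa
Top2, chr2L:19453552-19453652: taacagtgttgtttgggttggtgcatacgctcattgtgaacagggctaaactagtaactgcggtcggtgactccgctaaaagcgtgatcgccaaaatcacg

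On the X chromosome, 188 of the 1030 MSL3 peaks lay with MSL1 and 842 were MSL3-only. The share with MSL1 was 18.3% (95% Wilson interval 16.01 to 20.7%). On the autosomes, 40 of 1879 lay with MSL1 (2.13%, 1.57 to 2.89%) and 1839 were MSL3-only. These intervals, like all below, cover the counting of peaks only and treat every peak as independent. Each protein has 1 list and no column is labelled with a replicate, so no replicate error can be given, no difference was tested and no p-value is printed. The files hold no read counts, so the depth behind the lists is unknown here, and a deeper MSL1 library could list more peaks.

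The shares did not differ clearly between the autosomal arms. They ran from 1.50% on 2R (7 of 467) to 2.74% on 3R (16 of 584), with intervals that overlap, and chromosome 4 had 0 of 14, with an upper limit of 21.5%. Nearly every MSL1 peak had its MSL3 peak, 247 of 247 on the X chromosome and, among autosomal ones, 40 of 42. The exceptions were a 475 bp peak at the promoter of Plp on 3L (rank 187 of the MSL1 list), which encodes a centrosome protein, and a 633 bp peak in a coding exon of tn on 2R (rank 287), which encodes a muscle TRIM protein.

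Of the X-linked MSL3 peaks with MSL1, 144 held a single MSL1 peak, 34 held 2, 7 held 3, 2 held 4 and 1 held 6. The last, 17698 bp wide with its summit in CG2889, was chosen for that count after its values were seen. The median width rose from 6009.5 bp for those with a single MSL1 peak to 9376.5 bp for those with 2. A wide peak has more room to meet an MSL1 peak, so this order, and the difference in width between the classes, is in part built into the criterion.

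Strength set the classes of the X chromosome apart (plot of width against fold enrichment). The X-linked peaks with MSL1 had a median fold enrichment of 17.2 (95% order-statistic interval 16.3 to 18.2) and the MSL3-only peaks 4.24 (4.04 to 4.49). As a rank percentile of the whole MSL3 list, in which 100 is the strongest peak and 0 the weakest, the medians were 96.5 (96.0 to 97.0) and 67.1 (65.0 to 69.8). Autosomal peaks with MSL1 stood at 78.8 (73.6 to 82.8) and autosomal MSL3-only peaks at 35.0 (33.4 to 37.1), with fold enrichments of 5.80 and 2.66. The median X-linked MSL3-only peak therefore ranked above the median autosomal one, and below the autosomal peaks with MSL1.

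The top of the MSL3 list was almost wholly X-linked peaks with MSL1. They made up 19 of the first 20 peaks and 92 of the first 100, and no X-linked MSL3-only peak came before rank 122. The first 500 held 179 X-linked peaks with MSL1, 197 X-linked MSL3-only peaks, 13 autosomal peaks with MSL1 and 111 autosomal MSL3-only peaks. The X-linked peaks were split into 5 equal groups by fold enrichment. The share with MSL1 was 78.2% (72.0 to 83.3%) in the strongest group, 9.22% (5.98 to 13.96%) in the next, 2.91% in the middle and 0.485% in each of the weakest pair. The autosomes had the same order at a lower level, with 8.78% (6.32 to 12.1%) in the strongest group and 0 of 376 in the weakest, with an upper limit of 1.01%.

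**Figure D1:**
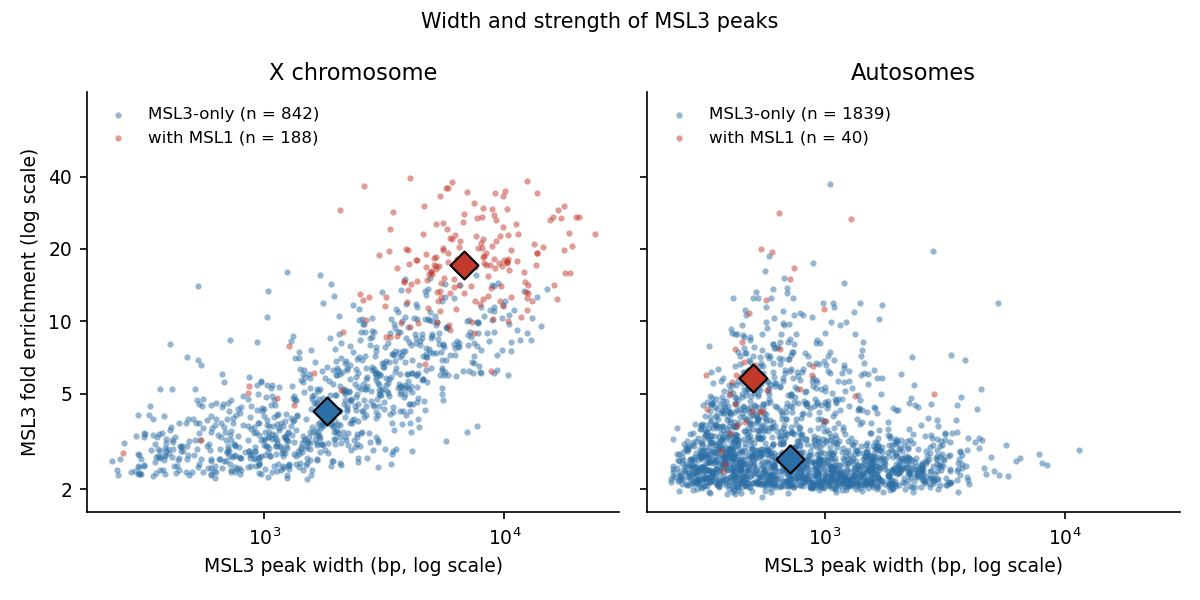
Fold enrichment of each MSL3 peak of MLEwt males against its width, both on log scales, for the X chromosome (left) and the autosomes (right). Red points are peaks with an MSL1 peak, blue points are MSL3-only, and diamonds are the medians of each class. On the X chromosome the red median lies at 6780.5 bp and 17.2-fold and the blue at 1824 bp and 4.24-fold, while on the autosomes the red median is the narrower one, at 501.5 bp against 719 bp.

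Width went in opposite directions on the X chromosome and the autosomes. X-linked peaks with MSL1 had a median width of 6780.5 bp (6067 to 7749 bp) and MSL3-only peaks 1824 bp (1673 to 1978 bp), a ratio of 3.72. The bounds of the medians put the ratio between 3.07 and 4.63. On the autosomes the medians were 501.5 bp (453 to 577 bp) and 719 bp (687 to 756 bp), a ratio of 0.697 (0.599 to 0.840). Width favours overlap, so the autosomal difference runs opposite to what the criterion builds in. With 5 equal groups by width, the share of X-linked peaks with MSL1 was 58.7% in the widest group and 1.94% in each of the narrowest pair. Among the autosomal peaks it was 0.266% in the widest group, from 1501 to 11419 bp, and highest, at 5.05% (3.26 to 7.76%), in that from 408 to 574 bp. When only the 293 strongest MSL3 peaks were kept, as many as in the MSL1 list, the X-linked width ratio was 1.52 (1.05 to 1.91) and the autosomal one, from 9 and 41 peaks, 0.913 (0.551 to 1.61), so the autosomal order was not clear among the strongest peaks.

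The MSL3-only peaks held the larger part of the X-linked MSL3 territory. They covered 2156 kb, or 9.16% of the X chromosome and 59.7% of the length under MSL3 peaks, and the peaks with MSL1 covered 1456 kb, or 6.18% of the chromosome. The widest of each class, picked after the values were seen, were a 23867 bp peak over HUWE1, a ubiquitin ligase gene, with MSL1, and a 14994 bp peak at CG11122 without it. Each of them overlapped an MSL2 peak. On the autosomes the widest were 2842 bp at Hsp68, a heat shock gene, with MSL1, and 11419 bp at mask without it, with ranks of 758 and 1623.

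The strongest X-linked peaks with MSL1 were led by Stt3A, the catalytic subunit of oligosaccharyltransferase, with a fold enrichment of 39.6 and rank 1 over chrX:21049655-21053712. CG2278 (rank 2, 38.4), CG2202 (rank 3, 37.9), CG4645 (rank 5, 36.4) and dx, a Notch pathway gene (rank 6, 35.8), followed, each with the MSL1 summit within 200 bp of the MSL3 summit. In the MSL1 list these sites ranked 9, 26, 27, 21 and 55, so the order of the MSL3 list was not that of the MSL1 list. At roX1 the MSL3 peak ranked 9 (fold enrichment 34.5, 6982 bp, chrX:3858458-3865439), and the MSL1 peak ranked 1 (25.7), with the summits 3 bp apart in the exon. At roX2 the ranks were 102 for MSL3 and 2 for MSL1, with summits 40 bp apart. Over the 188 X-linked peaks, the Spearman correlation of the MSL3 fold enrichment with that of the strongest MSL1 peak inside it was 0.59, and over the 40 autosomal ones 0.46. Both values of a pair come from the same stretch of chromosome and share its mappability and background, and are given as a description only.

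The strongest X-linked MSL3-only peaks reached less than the median strength of the peaks with MSL1. They lay near the start of Rala, a small GTPase gene (rank 122, fold enrichment 15.96, 1240 bp), in g, a subunit of the AP-3 complex (rank 127, 15.6, 7629 bp), in sw, the dynein intermediate chain (rank 127, 15.6, 1704 bp), in CG1486 (rank 130, 15.2, 4887 bp) and in Spx, a splicing factor (rank 133, 15.0, 3866 bp). Their summits were 141507, 41320, 3697, 6068 and 24949 bp from the nearest MSL1 summit. The Rala peak differed from the other 4 in having an MSL1 peak in MLEΔCBD males. Among the 100 strongest X-linked MSL3-only peaks, those farthest from MSL1 were over RhoGAP1A (rank 274, 7650 bp wide, 334800 bp away), over G9a, a histone H3 lysine 9 methyltransferase (rank 302, 11312 bp wide, 219655 bp away), and over Mnt, the partner of Max that opposes Myc (rank 161, 4814 bp wide, 161101 bp away). The RhoGAP1A peak overlapped an MSL2 peak, and those over G9a and Mnt did not. Strong and wide MSL3 peaks were thus listed far from any listed MSL1 site.

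Among the autosomal MSL3-only peaks, the strongest was an intergenic one over chr3R:22793593-22794641 (rank 4, fold enrichment 37.3, 1049 bp), 10135 bp from the start of CG7031. It was followed by l(3)73Ah (rank 70, 19.7), and by peaks near Top2, topoisomerase 2 (rank 81, 18.7), MCU, the mitochondrial calcium uniporter (rank 99, 17.5), and nemy (rank 119, 16.2). Of these 5 the peak at l(3)73Ah was the widest, at 2828 bp, and the others measured 566 to 1049 bp. The strongest autosomal peaks with MSL1 lay near CG13323 (rank 23, fold enrichment 28.2), in bun, a TSC22 family gene (rank 32, 26.5), near mRpL13, a mitochondrial ribosomal protein gene (rank 65, 20.0), in CG32196 (rank 72, 19.5) and near CG14082 (rank 111, 16.7). The MSL1 summit was 3 to 78 bp from the MSL3 summit at all of them. None had an MSL2 peak, but the MSL2 list held only 4 autosomal peaks.

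The distance from the summit of each MSL3-only peak to the nearest MSL1 summit on the same chromosome arm was measured next. On the X chromosome the median was 17242.5 bp (15484 to 18844 bp), the middle range from 8026 to 33976 bp, and the extremes 935 and 522244 bp. The farthest, over a coding exon of dnc, a phosphodiesterase gene, had rank 981. Of the 842 peaks, 110 (13.1%, 10.95 to 15.5%) were within 5000 bp of an MSL1 summit, 472 (56.1%) within 20000 bp and 792 (94.1%) within 100000 bp, which leaves 50 farther away. For all bases of the X chromosome the median distance to an MSL1 summit was 41822 bp, and for its coding bases 19541 bp. MSL3 peaks that touch an MSL1 peak are left out of the first median by definition, whereas the bases next to MSL1 summits are in the other medians, so the values are set side by side and not compared (cumulative plot of distances).

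On the autosomes the median was 781226 bp (722515 to 852897 bp) over 1825 MSL3-only peaks, with 14 on chromosome 4, which had no MSL1 peak. The median over all bases of the other autosomal arms was 1026599 bp. Only 86 of the 1839 (4.68%, 3.80 to 5.74%) lay within 50000 bp of an MSL1 summit, against 726 of 842 on the X chromosome (86.2%, 83.7 to 88.4%). The autosomal distances are set against only 42 listed MSL1 peaks.

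**Figure D2:**
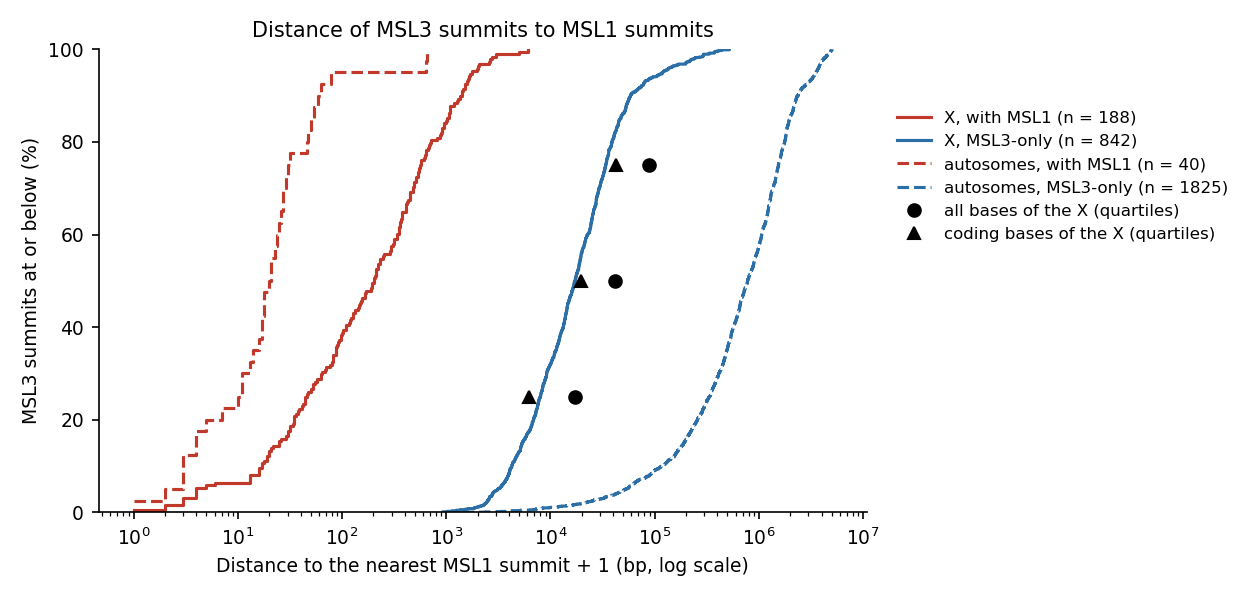
Cumulative share of MSL3 summits by distance to the nearest MSL1 summit, with 1 bp added and on a log scale. Solid lines are the X chromosome, dashed lines the autosomes, red peaks with MSL1 and blue MSL3-only, and black symbols give the quartiles for all bases and for coding bases of the X chromosome. The blue solid line passes 50% at 17242.5 bp, and the symbols at 50% stand at 19541 bp for coding bases and 41822 bp for all bases.

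Seen from the MSL1 sites, the X chromosome was densely covered by MSL3 close by and thinly far away. The near end is in part built in. All 247 X-linked MSL1 peaks overlapped an MSL3 peak, and the MSL3 peaks with MSL1 had a median width of 6780.5 bp. MSL3 peaks covered 96.0% of the bases within 1 kb of an MSL1 summit, 59.5% of those at 2 to 5 kb, 18.8% at 10 to 20 kb, 11.7% at 20 to 50 kb and 2.03% beyond 100 kb. For coding bases the figures at the same distances were 100.0%, 87.8%, 53.1%, 40.9% and 18.8%. From 20 kb outwards all of this was MSL3-only. The density of MSL3-only peaks was highest at 5 to 10 kb, with 94.4 summits per Mb, and fell to 38.8 per Mb at 20 to 50 kb and 9.68 per Mb beyond 100 kb. MSL3-only peaks overlap no MSL1 peak by definition, which keeps their density low at the shortest distances. Their median fold enrichment was 4.77 at 5 to 10 kb, 4.26 at 20 to 50 kb, 3.60 at 50 to 100 kb and 3.90 in the 50 peaks beyond 100 kb. From 5 kb outwards the median fold enrichment thus varied far less with distance than the density per Mb. The median covers listed peaks only, none of them below 2.21-fold, so it could not fall as freely as the density.

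**Figure D3:**
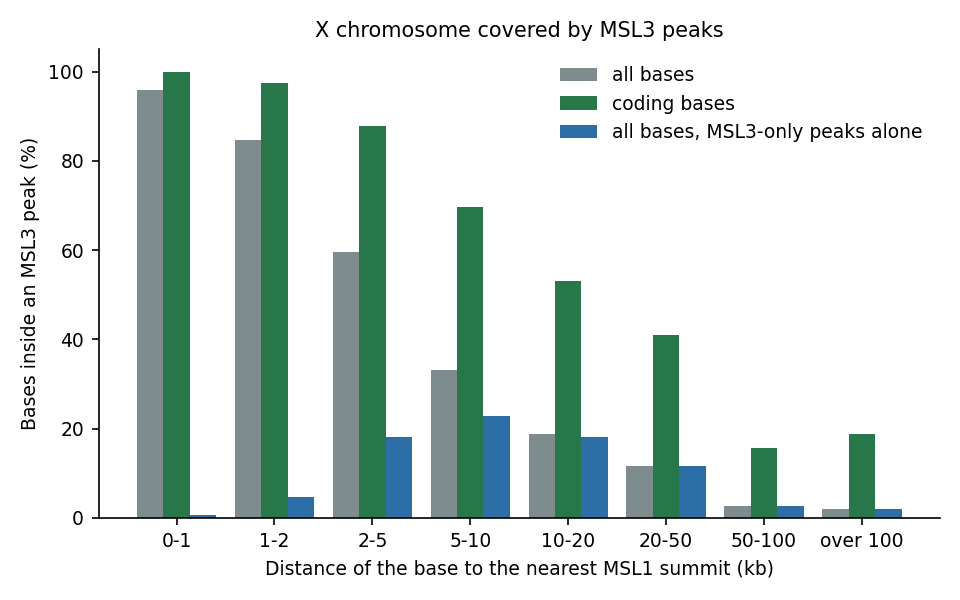
Percentage of the bases of the X chromosome that lay inside an MSL3 peak, by distance of the base to the nearest MSL1 summit. Grey bars are all bases, green bars coding bases, and blue bars all bases under MSL3-only peaks alone. Grey falls from 96.0% within 1 kb to 2.03% beyond 100 kb, and green is above grey at every distance. Every X-linked MSL1 peak overlapped an MSL3 peak, so the high values close to MSL1 summits are in part built in.

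Some MSL3-only peaks lay close to an MSL3 peak with MSL1. The gap between the edges had a median of 12152 bp, was 5000 bp or less for 261 of the 842 (31.0%, 28.0 to 34.2%) and under 1000 bp for 134. When MSL3 peaks up to 1000 bp apart were merged, the X chromosome had 629 MSL3 stretches, of which 177 held MSL1 (28.1%, 24.8 to 31.8%), and the median distance of the others rose to 23893 bp. On the autosomes merging left the share with MSL1 at 2.35%.

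MSL3 summits of the X chromosome lay in coding exons whether or not MSL1 was there (bars of gene parts). Each summit was given 1 part, in the order promoter (within 200 bp of a transcription start), 5′ UTR, 3′ UTR, coding exon, other exon, intron and intergenic. Coding exons held 135 of 188 summits with MSL1 (71.8%, 65.0 to 77.8%) and 568 of 842 MSL3-only summits (67.5%, 64.2 to 70.5%), a difference of 4.35 percentage points (95% Newcombe interval -3.13 to 11.1), while coding exons make up 15.0% of the bases. Introns, 45.5% of the bases, held 5.32% and 6.65%. The shares at the ends of genes differed. Promoters held 3.19% (1.47 to 6.79%) of the summits with MSL1 and 11.4% (9.43 to 13.7%) of the MSL3-only summits, a difference of -8.21 points (-11.1 to -4.11). Among the 293 strongest MSL3 peaks, as many as in the MSL1 list, a promoter held 1 of 170 X-linked summits with MSL1 and 2 of 73 MSL3-only summits, and the difference of -2.15 points had an interval that includes 0 (-8.88 to 1.17). The 3′ UTRs held 14.9% and 7.96%, a difference of 6.94 points (2.11 to 12.95).

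The autosomal classes differed far more. Of the 40 autosomal summits with MSL1, 16 were intergenic (40.0%, 26.3 to 55.4%), 13 were at promoters, 8 in introns and 2 in coding exons. Of the 1839 MSL3-only summits, 677 lay in coding exons (36.8%), 674 at promoters (36.7%) and 176 in intergenic sequence (9.57%). The difference, with MSL1 minus MSL3-only, was -31.8 points for coding exons (-36.1 to -20.1), 30.4 points for intergenic sequence (16.7 to 45.9) and -4.15 points for promoters (-16.8 to 11.5), an interval that includes 0.

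MSL3-only summits were at promoters less often on the X chromosome than on the autosomes, with a difference of -25.2 points (-28.2 to -22.1). This order, like that of the X-linked classes, depended on using the summit. When any base of the peak within 200 bp of a start was counted instead, the shares were 57.2% for X-linked and 49.1% for autosomal peaks, a difference of 8.14 points in the other direction, and X-linked peaks are the wider ones. Promoter summits of MSL3-only peaks sat in narrow peaks, with a median width of 600.5 bp on the X chromosome, where those in coding exons had 2410.5 bp, and of 506.5 and 1339 bp on the autosomes.

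**Figure D4:**
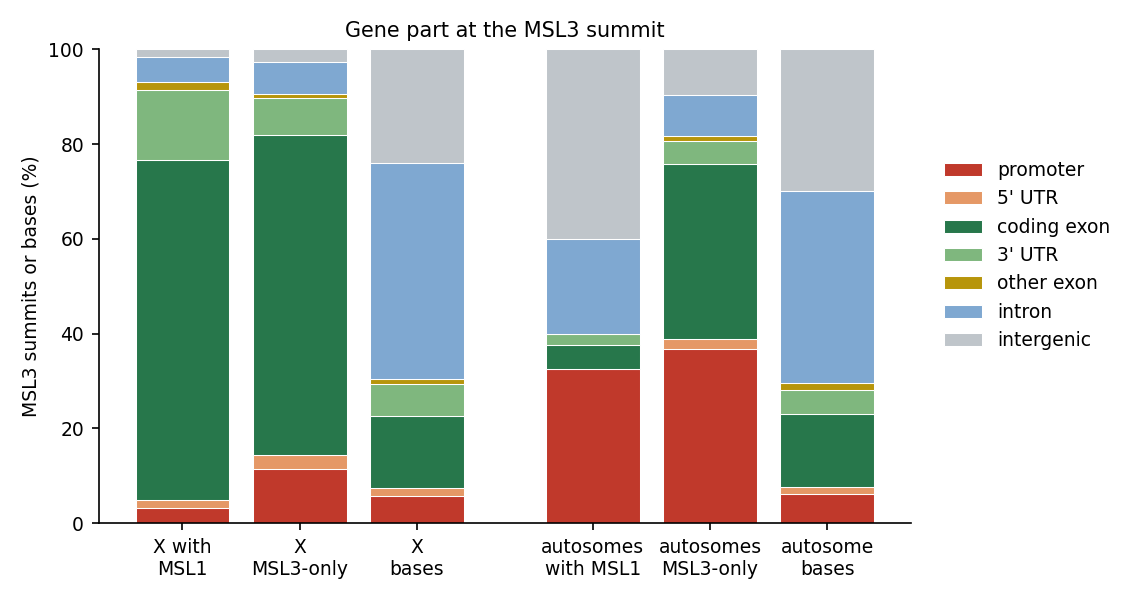
Percentage of MSL3 summits in each gene part for the classes with MSL1 and MSL3-only, with the bases of the X chromosome and of the autosomes beside them. Coding exons hold 71.8% and 67.5% of the X-linked summits, 5.00% of the autosomal summits with MSL1 and 36.8% of the autosomal MSL3-only summits.

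Along the gene, X-linked MSL3 summits leaned to the 3′ end in both classes. Among summits inside a single gene, with 0% at its start and 100% at its end, the median position was 67.0% (62.8 to 71.5%) for 171 summits with MSL1 and 63.1% (60.0 to 66.7%) for 707 MSL3-only summits. With the gene cut into 5 equal parts, the part at the 3′ end held 55 and 196 of them and the part at the 5′ end 7 and 72. Autosomal MSL3-only summits had a median of 52.4% (48.8 to 56.3%) over 1299 summits. There both ends were filled, with 338 in the part at the 5′ end and 296 in that at the 3′ end.

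Within the shared peaks of the X chromosome, MSL1 and MSL3 summits often lay in different parts. The distance from the MSL3 summit to that of the strongest MSL1 peak inside had a median of 293.5 bp (194 to 376 bp), was within 100 bp in 63 of 188 pairs and above 1000 bp in 42. Only 59 of these MSL1 summits were in coding exons (31.4%), where 135 of the MSL3 summits were. Another 59 were in 3′ UTRs and 41 in introns (21.8%), where 28 and 10 of the MSL3 summits were. The MSL1 summits thus lay in non-coding parts more often than the MSL3 summits of the same peaks. The MSL3 peak was 4.49 times as wide as the MSL1 peak by the median. Of the 166 pairs inside a gene, the MSL3 peak reached farther from the MSL1 summit toward the gene's end in 94 (56.6%, 49.0 to 63.9%). That interval includes an equal split between the directions. On the autosomes the summits nearly coincided. The median distance was 19.5 bp (13 to 26 bp), 38 of 40 pairs were within 100 bp, and the MSL3 peak was 1.22 times as wide as the MSL1 peak. These MSL3 peaks had a median width of 501.5 bp, against 6780.5 bp on the X chromosome. A narrow peak leaves less room between summits, so the distances are not on an equal footing.

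Base composition and motifs followed the same line. In the 201 bases centred on the summit, the median GC content was 58.2% at X-linked MSL3 summits with MSL1, 57.7% at MSL3-only summits and 50.0% at the MSL1 summits inside the former, where the X chromosome as a whole has 42.5%. The whole chromosome is not matched for gene part, and most X-linked MSL3 summits lay in coding exons. GAGAGAGA, searched on both strands, was found in 47 of 188 windows at the MSL1 summits (25.0%, 19.4 to 31.6%), in 12 at the MSL3 summits of the same peaks (6.38%, 3.69 to 10.8%) and in 24 of 842 MSL3-only windows (2.85%, 1.92 to 4.21%). Of all 116786 windows of this length tiled along the X chromosome, 1.54% held it. GA repeats were thus more frequent at MSL1 summits, as in the roX2 and CG1677 sequences above, than at the MSL3 summits of the same peaks. A window without these letters may still hold a GA-rich site in another form.

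At their MSL3 summits the autosomal sites with MSL1 had no GA repeat (0 of 40, up to 8.76%), and most held a different sequence. Of the 42 autosomal MSL1 summits, 1 had a GA repeat (2.38%, 0.422 to 12.3%). The preimmune library was not analysed here, so whether these sites are also enriched without a specific antibody was not tested. Their GC content was low, with a median of 39.3% against 52.2% for autosomal MSL3-only summits. All 8-letter words of the 40 windows were counted on both strands, and the most frequent, CAAGCAGT, was in 34 of them (85.0%, 70.9 to 92.9%). It was in 40 of 1839 autosomal MSL3-only windows (2.18%, 1.60 to 2.95%), in 10 of 842 X-linked MSL3-only windows, in 1 of 188 X-linked windows with MSL1, and in 0.572% of the 548074 tiled autosomal windows. The word was picked because it was frequent in these 40 windows, so its share there is a description and not a test. At the 42 autosomal MSL1 summits, which are largely the same sites, 36 windows held it (85.7%). Of the 40 windows, 20 held 2 or more copies and 8 held 3 or more, and the copy nearest to the MSL3 summit was centred a median of 13 bp from it. In the 3 other classes the most frequent word was GCAGCAGC, in 12.4 to 17.6% of the windows, beside 3.87% of all X-linked and 3.28% of all autosomal windows. Coding exons held a larger share of these summits than of all bases. The tiled windows are not matched for this, so the excess was not separated from gene part. The next word of the autosomal sites, AAGCAGTG, in 31 of the 40 and 0.579% of all autosomal windows, overlaps CAAGCAGT and is not a separate finding. Of the core promoter motifs searched, TATCGATA was in 43 autosomal MSL3-only windows (2.34%, against 0.534% of all) and GGTCACAC in 52 (2.83%, against 0.418%), and each was in 1 of the 40 windows with MSL1.

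There were 6 autosomal sites without the word within 100 bases of the MSL3 summit. They lay near CG13323 and lobo, at Hsp68 and EDTP, and at the start of InR, the insulin receptor gene. The last was at a start of the initiator methionine transfer RNA within ome. At EDTP and the start of InR the MSL1 summit was 645 and 649 bp from the MSL3 summit, outside the window searched. The other InR peak, with its summit in a coding exon (rank 678), held the word. Most copies of the word lay outside the peaks. It occurs 3292 times on the autosomes, of which 181 (5.50%) lay in MSL3 peaks and 71 (2.16%) in MSL1 peaks. Those peaks covered 1.75% and 0.0168% of the autosomal bases, so copies lay in peaks more often than bases did. The word was picked from windows in some of these peaks, so the shares are a description only. In windows not used to find it, those at 337 autosomal MSL1 peaks of MLEΔCBD males with no MSL1 peak in MLEwt males, 59 held it (17.5%, 13.8 to 21.9%). In the same windows GGTCACAC was more frequent, in 94 (27.9%, 23.4 to 32.9%), and TATCGATA was in 29 (8.61%, 6.06 to 12.1%). Of the 40 autosomal MSL3-only peaks with the word, 24 had an MSL1 peak in MLEΔCBD males, and of the 1799 without it 142. The 40 had a median rank of 1198.5, against 1895 for all autosomal MSL3-only peaks, so this was not separated from strength. The 24 draw on the same MSL1 list as the 337 windows above, so the counts are not independent.

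**Figure D5:**
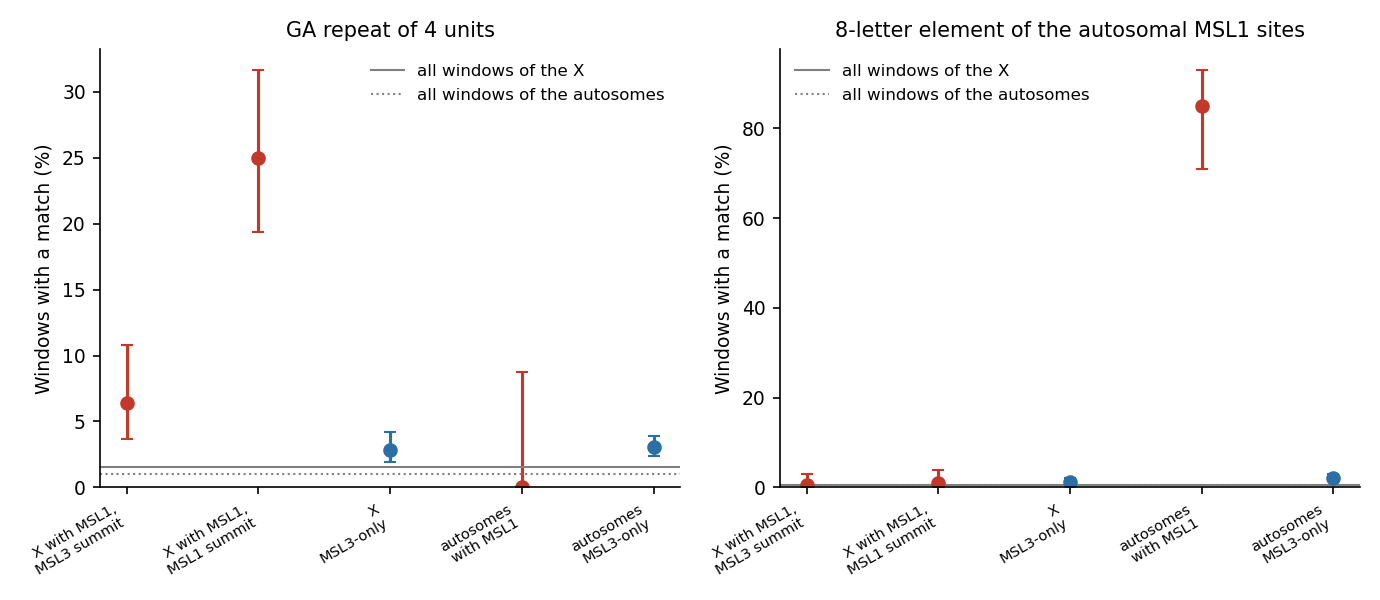
Percentage of 201-base windows with at least 1 match on either strand, for the GA repeat of 4 units (left) and for the 8-letter element of the autosomal sites (right). Points are the classes, in red with MSL1 and in blue MSL3-only, with 95% Wilson intervals, and grey lines are all tiled windows of the X chromosome (solid) and the autosomes (dotted). The GA repeat is highest at MSL1 summits of the X chromosome, at 25.0%, and the autosomal element at the MSL3 summits of the autosomal sites with MSL1, at 85.0%.

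Transfer RNA genes were present in both autosomal classes. A transfer RNA start lay within 200 bp of 3 of the 40 summits with MSL1, at genes for threonine, serine and initiator methionine transfer RNAs, and of 62 of the 1839 MSL3-only summits (3.37%, 2.64 to 4.30%). With so few, the shares cannot be told apart (3 of 40 allows 2.58 to 19.9%). The autosomes hold 269 annotated transfer RNA genes. The share of autosomal bases near their starts was not counted, so neither class is set against a background here. Other autosomal sites with MSL1 lay at Eip75B, an ecdysone-induced nuclear receptor gene (rank 2039), PolrMT, the mitochondrial RNA polymerase (rank 2318, the weakest), TfIIS, an elongation factor gene (rank 1245), and in the 3′ UTR of Antp, a homeotic gene (rank 770).

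By gene, MSL3 reached far more X-linked genes than MSL1. Of 2196 protein-coding genes of the X chromosome, 1231 overlapped an MSL3 peak (56.1%) and 241 an MSL1 peak (11%), so 990 had MSL3 without MSL1. Some of these lay under the same MSL3 peak as a neighbour with MSL1. A total of 400 genes lay in an MSL3 peak that held MSL1, and 159 of them had no MSL1 peak of their own. On the autosomes 1603 of 11749 genes overlapped an MSL3 peak (13.6%) and 37 an MSL1 peak (0.315%).

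Of the 8 genes of dosage compensation, 4 had an MSL3 peak and 2, roX1 and roX2, also MSL1. The mof gene, which encodes the acetyltransferase, is X-linked and lay in a 5402 bp MSL3 peak (rank 164) whose summit was 286 bp from an MSL1 summit, although no MSL1 peak overlapped the gene itself. Clamp, on 2L, had a weak peak (rank 2186, fold enrichment 2.44), and msl-1, msl-2, msl-3 and mle had none. In the NSL complex, which also contains MOF, nsl1, wds and dgt1 of 6 genes had an MSL3 peak and none had MSL1. Among 6 genes listed for methylation of lysine 36 of histone H3, its readers and their partners, 4 had MSL3. Set2, the X-linked gene for the main enzyme that trimethylates this lysine, had an 8945 bp peak (rank 255, fold enrichment 10.3) with an MSL1 peak of rank 140 in the gene, whereas NSD, JIL-1 and MRG15 had peaks of ranks 2765, 1840 and 2652. All 5 X-linked members of these lists had an MSL3 peak and 6 of the 15 autosomal ones, beside 56.1% and 13.6% of all protein-coding genes of the X chromosome and the autosomes, and with so few members nothing is read from these counts.

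Most X-linked sites with MSL1, and few MSL3-only sites, had a peak of MSL2, the male-specific subunit. An MSL2 peak overlapped 173 of the 188 X-linked MSL3 peaks with MSL1 (92.0%, 87.3 to 95.1%), 24 of the 842 MSL3-only peaks (2.85%, 1.92 to 4.21%) and none of the autosomal peaks of either class. The MSL2 list held 216 X-linked peaks and only 4 autosomal ones, so the autosomal classes had almost no MSL2 peak to overlap. The 24 were strong for MSL3-only peaks, with a median fold enrichment of 8.95 and a median width of 4300 bp, and lay a median of 46479 bp from an MSL1 summit. The strongest of them, named after their values were seen, were at xmas, an mRNA export gene (rank 141, 9437 bp), and Dlic, a dynein light intermediate chain gene (rank 150, 8845 bp).

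In MLEΔCBD males an MSL3 peak was again listed at 181 of the 188 X-linked sites with MSL1 (96.3%) and 234 of the 842 MSL3-only sites (27.8%), and at 39 of 40 and 1001 of 1839 (54.4%) on the autosomes. Strength and class moved together, so the classes were set side by side within the groups by fold enrichment. These groups narrow the range of strength but do not make it equal between the classes. In the strongest group of X-linked peaks all 161 with MSL1 and all 45 MSL3-only peaks were listed again, which leaves no room for a difference. In the next group 16 of 19 with MSL1 (84.2%, 62.4 to 94.5%) and 103 of 187 MSL3-only peaks (55.1%, 47.9 to 62.0%) were. That group spanned fold enrichments of 6.11 to 10.4, so the difference was not separated from strength. Among the autosomal MSL3-only sites, 166 (9.03%) had an MSL1 peak in MLEΔCBD males, and 125 of these summits were at promoters (75.3%, 68.2 to 81.2%), against 549 of the other 1673 (32.8%, 30.6 to 35.1%).

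The classes also differed in how reproducible their peaks were. Their order was that of their median fold enrichment, so this difference was not separated from strength. Each list gives a global irreproducible discovery rate (IDR) for every peak, and it was 0.001 or less for all X-linked peaks with MSL1, 97.5% of the autosomal ones with MSL1, 84.3% of the X-linked MSL3-only peaks and 60.3% of the autosomal MSL3-only peaks. The lists also hold a second peak set for each peak. Its widths had medians of 6931.5, 1918, 497.5 and 729 bp, for X-linked peaks with MSL1 and MSL3-only and then the autosomal ones in the same order, beside 6780.5, 1824, 501.5 and 719 bp in the first, so the width order held in both sets.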

How the data were processed

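The 4 libraries behind the compared lists were 2 for MSL3 and 2 for MSL1. According to the labels and the methods, the authors used cutadapt for trimming, Bowtie2 for mapping to dm6, MACS2 for peak calling and IDR thresholds of 0.05 and 0.01 for reproducibility. The deposited fold enrichment is a ratio over background and gave ranks and class medians within a list, and the deposited −log10 p-value of each peak, with the −log10 q-value and −log10 IDR as deposited scores, were used only as filters or ranks. The start, end and summit of a peak equal those of the first of 2 peak sets in the list, and which set gave the fold enrichment is not known. No read counts are given, so depth is unknown. There were 0 unmapped columns of per-sample values.

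Shares have 95% Wilson intervals, differences Newcombe intervals and medians exact order-statistic intervals. Genes and starts were from Ensembl release 115 (BDGP6, transposable elements left out), and bases from the RefSeq release 6 genome. Nearest distances stayed within an arm. Named peaks were the 5 strongest of each class, the 3 farthest from MSL1 among the 100 strongest X-linked MSL3-only peaks, the MSL1 peaks without MSL3, the listed genes and the genes named in the study. Members, lists and rules were chosen with earlier results of these data known. The alternatives were another overlap criterion, stricter thresholds, equal list lengths, merged peaks, ranks by −log10 p, means and other promoter definitions, and, chosen after seeing the data, the second peak set, a global IDR of 0.001 and all settings for the differences in promoter share. Overlap and distance functions and the median and Wilson intervals were tested on simulated data, and the promoter assignment on positions near annotated starts. The motif counts were not tested in this way. The software was numpy 2.4.6, scipy 1.17.1, pandas 2.3.3 and matplotlib 3.10.9 under python 3.11.15.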

Additional observations from a re-analysis of the deposited data

How the results depend on the processing

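No paired analysis was possible because each protein has 1 list and no column is labelled with a replicate, and for the same reason no replicate could be left out. Of 88 alternative values for 12 results, 53 stayed within the 95% interval of the reported value and 33 moved out of it in size. Only the width ratios and the differences in promoter share have a direction to lose, and 2 values lost it: with whole peaks in place of summits, the promoter share with MSL1 minus MSL3-only on the X chromosome was 28.9 points and that of X-linked minus autosomal MSL3-only peaks 8.14 points, where the reported values were -8.21 and -25.2. An overlap of 50% of the shorter peak changed nothing, and a −log10 q of 3 or more left out no peak. With the MSL1 summit within 250 bp of the MSL3 summit, the X-linked share with MSL1 was 10.1%, the median distance of the other X-linked peaks 14668.5 bp and their rank percentile 70.9. With as many MSL3 as MSL1 peaks, the X-linked and autosomal shares with MSL1 were 70.0% and 18%, the width ratios 1.52 and 0.913 (0.551 to 1.61), the promoter differences -2.15 and -43.6 points, and the shares of MSL3-only summits at a start 2.74% and 46.3%. Merging within 1000 bp gave an X-linked share of 28.1% and a distance of 23893 bp. Ranks by −log10 p gave percentiles of 64.1 and 38.1. Means in place of medians gave distances of 33110 and 1101373 bp, an X-linked width ratio of 3.02 and percentiles of 64.2 and 38.4. A window of 1000 bp put 42.3% of X-linked and 58.1% of autosomal MSL3-only summits at a start (differences of -26.3 and -15.8 points), and whole peaks 57.2% and 49.1%. With a global IDR of 0.001 or less (2051 MSL3 and 179 MSL1 peaks), the X-linked share with MSL1 was 15.1%, the distances 26838 and 1188041.5 bp, the X-linked percentile 63.5 and the shares at a start 8.14% and 45.6% and the X-linked minus autosomal difference -37.5 points. The X-linked promoter difference had an interval that includes 0 with equal list lengths, with summits within 250 bp (-8.36 to 1.91) and with the IDR limit (-7.47 to 0.496). The second peak set moved none of the 12 results out of its interval. The cause of these moves was not tested beyond what each setting leaves out or adds.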
